A study of Arabidopsis thaliana with 8 samples.

Results

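Abundant shoot transcripts whose signal stayed low in root were chosen by a rule on 2 tissues: a probe set, the group of short probes that reports 1 transcript as 1 signal, had to reach a signal of at least 1000 on all 4 shoot arrays and at most 100 on all 4 root arrays. The rule took 321 of 22746 probe sets, 1.41%, after 64 Affymetrix control probe sets were left out. Of the 321 members 144 named a single gene, 4 named several genes and 173 had no gene name in the tables used, so the functions described below are those of 143 genes, 1 of which has 2 member probe sets. Of members 44.9% named 1 gene, against 59.4% of all probe sets. This low share was not particular to members. Of the 2977 probe sets at 1000 or more on all 4 shoot arrays, 1326 named 1 gene, a similar share.

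The plants were Arabidopsis thaliana, accession Col-0, grown in hydroponic culture and about 3 weeks old. They received KBr, NaI or KI at 10 μM for 48 h, or the base nutrient solution alone as control. The labels give the iodine contaminant of that solution as 8 nM, and the study's methods give this value as the detection limit, below which it lay. Shoot (leaves in the labels, rosettes in the study's methods) and root of each treatment were read on 1 ATH1 array each, from RNA of 3 pooled plants. KBr brings potassium with another halide, and NaI and KI bring iodide with different cations. No treatment was repeated on another array of the same tissue, so salt and array cannot be told apart, and a difference is given as a ratio of signals with no p-value.

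Each array had a mean signal close to 500 without the highest and lowest 2% of probe sets, and between 58.5% and 61.7% of probe sets reached 100. As a check of the tissue labels, the root hair expansins EXPA7 and EXPA18, which loosen the walls of root hair cells, had shoot signals of 2.22 to 36.4 and 29.9 to 77.7, against root signals of 582 to 1917 and 685 to 2588. The labels give 1 RNA extraction for all samples, whereas the study's methods describe a different one for root, so extraction and tissue cannot be told apart here. A signal at or below 100 is a low MAS5 signal and not proof that a transcript is missing.

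The leaf is the plant's photosynthetic organ. In its chloroplasts, light-harvesting proteins pass energy to photosystems II and I, the cytochrome b6f complex and small carriers move electrons between them, and the Calvin-Benson cycle uses the products to fix carbon dioxide. The NDH complex returns electrons to the thylakoid membrane, and photorespiration recovers carbon when Rubisco takes up oxygen in place of carbon dioxide. Most proteins of these systems are encoded in the nucleus and imported, and a smaller set, which includes several NDH subunits, is encoded in the chloroplast genome. Root plastids are mostly not photosynthetic.

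The geometric mean of a member's 4 shoot signals ranged between 1071 and 47914, with a median of 2904. Because the rule set the floor, these values are a description. The 2656 other probe sets at 1000 or more on all shoot arrays, called the bright non-members below, had a median of 2187. High signals were common among members: 65 of 321 reached 10000 on every shoot array, against 126 of 2656 bright non-members, and 25 members reached 20000, against 29. In root the median member signal was 29.7 with KBr, 32.3 with NaI, 27.1 with KI and 33.7 in the control, and 165 members stayed at or below 50 on all 4 root arrays. A member's lowest shoot signal was between 11.0 and 4236 times its highest root signal, with a median of 68.4, where a ratio of at least 10 was fixed by the rule.

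**Figure D1:**
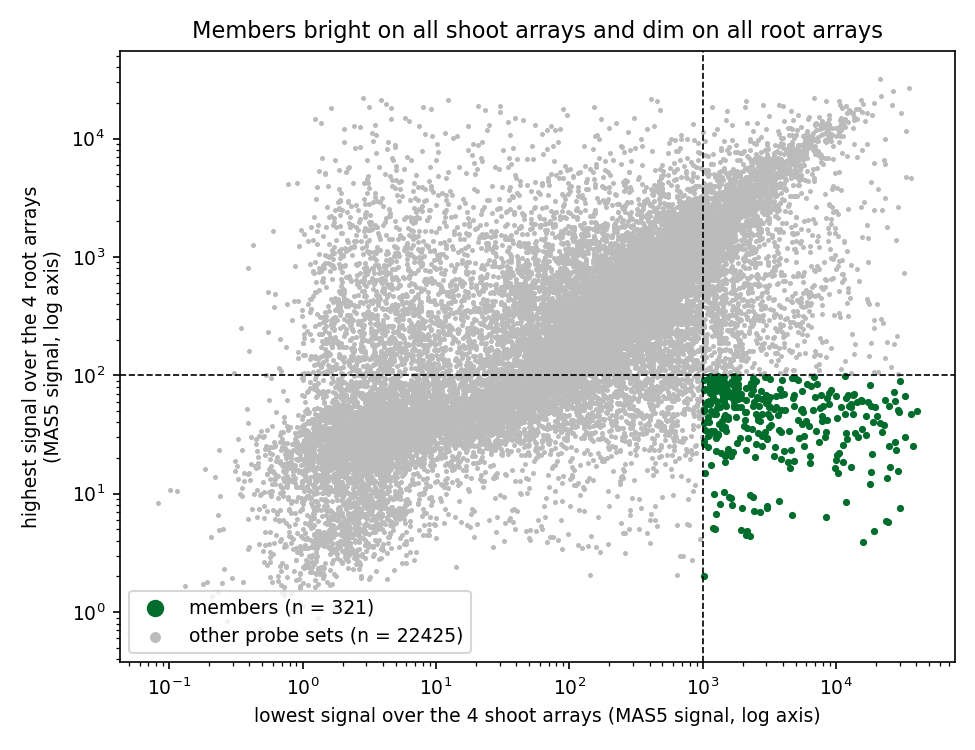
Each point is 1 of 22746 probe sets, with its lowest signal over the 4 shoot arrays on the x axis and its highest signal over the 4 root arrays on the y axis, both MAS5 signals on log axes. The 321 members, in green, fill the corner at 1000 or more in shoot and 100 or less in root, with shoot signals running to over 10000, and the dashed lines mark both thresholds.

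Ranking was by signal, and a signal also depends on the probes of its set, so the order is an order of signals and not of transcript numbers. The highest shoot mean of all belonged to a probe set with no gene name, 264474_s_at. ECS1, which encodes a cell wall protein and has been linked to pathogen resistance, came next and was the highest of the named genes. Its shoot signals were 37579 with KBr, 45722 with NaI, 61541 with KI and 43658 in the control, and its root signals lay at 14.6 to 25.3. It was first among the named members on every shoot array, and its highest and lowest shoot signals differed 1.64-fold.

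RCA, Rubisco activase, which frees the active sites of Rubisco, was the second named gene on every shoot array, with shoot signals of 30286 with KBr, 30943 with NaI, 36838 with KI and 34909 in the control and root signals of 52.4 to 90.3. PSAE-1, a stromal subunit of photosystem I, read 24637 with KBr, 28220.2 with NaI, 33472 with KI and 24201 in the control in shoot and 1.88 to 13.5 in root. It held place 3 with KBr, NaI and KI and place 4 in the control, where COR15A held place 3. These 3 genes were the only named members above 20000 on all 4 shoot arrays.

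Below them came AT2G26500, the PetM subunit of the cytochrome b6f complex, at 19711 to 22649 in shoot, AT1G09310, a DUF538 family gene, at 18564 to 22747, and COR15A, a chloroplast protein of the cold response, at 18279 to 24959.6. PSBY, a photosystem II subunit (18388 to 20891), PRK, phosphoribulokinase of the Calvin-Benson cycle (16696 to 18919), and CCL, a transcript under circadian control that turns over rapidly (13389 to 20596), followed. Places 10 to 20 were held by AT5G38980, THIC, PSAN, HPR, PSBW, AT1G74470, SBPASE, COR15B, PORB, PIFI and LHCB4.2, whose geometric means ran between 15859 and 11762. Most of the 20 act in the chloroplast or, for HPR, in the peroxisome: 5 in photosystems and light harvesting, 4 in carbon metabolism and photorespiration, 3 in pigment and vitamin synthesis and 2 in electron transport. The 20 named genes spanned places 2 to 63 among all 321 members, and 3 of them were among the 20 highest.

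**Figure D2:**
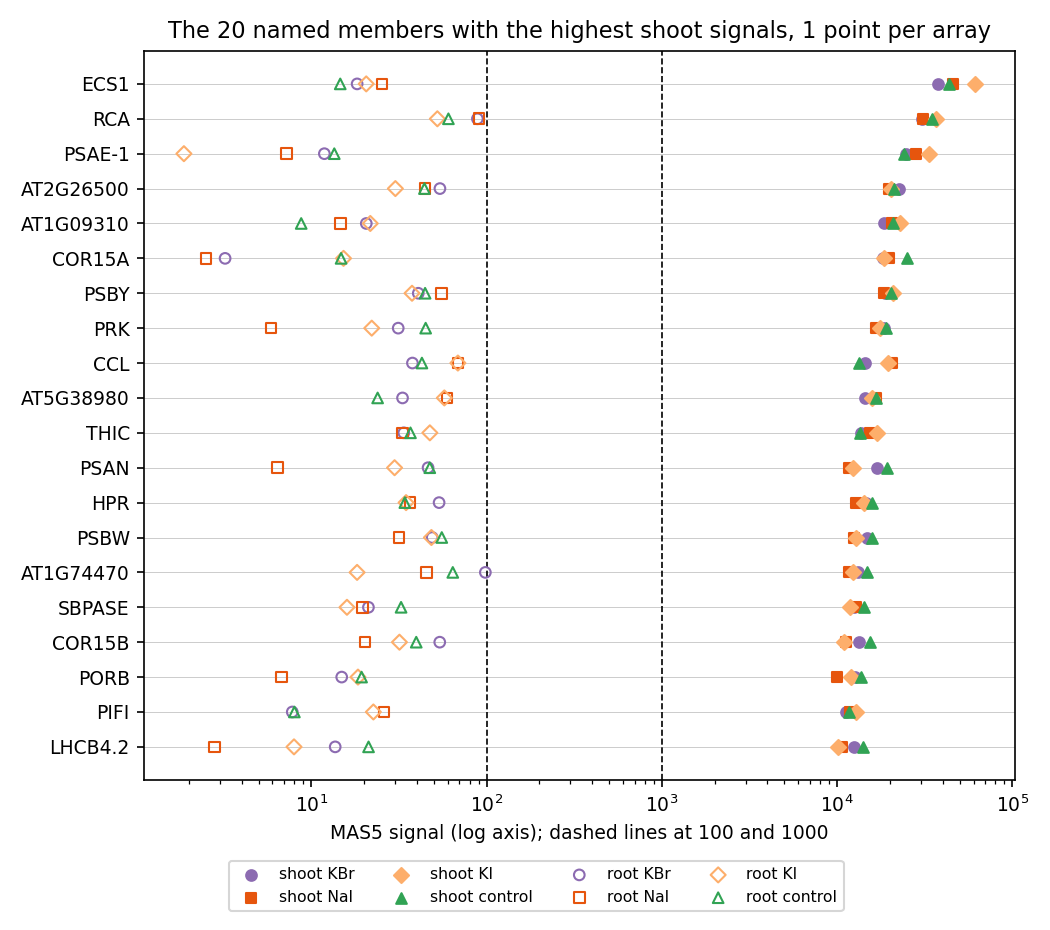
Signals of the 20 named members with the highest mean log2 shoot signal, with genes down the page and MAS5 signal on a log x axis, 1 point per array. Filled points are the shoot arrays (KBr, NaI, KI, control) and open points the root arrays, and all shoot points lie at 9981 or above while all root points lie at or below 98.4.

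The order changed little over the arrays, and less within the pairs KBr with control and NaI with KI than across them. Over the 321 members, Spearman's rho was 0.986 between KBr and control and 0.985 between NaI and KI, and between 0.922 and 0.932 for the 4 pairs that set an iodide salt against KBr or control. Over the 144 named members these values were 0.982, 0.974 and 0.897 to 0.906. The points of such a rho are genes read on the same arrays and are no independent replicates. Among the 20 highest members of each array, 14 were shared by all 4 arrays, and among the 20 highest named members 19 were shared. CCL moved most within the named top 20. It held place 13 with KBr, 4 with NaI, 7 with KI and 19 in the control.

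Stability over the salts in shoot was measured as the ratio of the highest to the lowest of the 4 shoot signals. The median ratio was 1.30 for members and 1.26 for the bright non-members, and the ratio was under 1.5 for 255 members, 79.4%, where 84.4% of all 2977 bright probe sets passed that limit. It was under 2 for 97.2% of members and 98.2% of the bright non-members. The members were thus somewhat more spread than other bright probe sets, and this held at mean signals of 1000 to 2000 (a median log2 ratio of 0.36 in members against 0.32 in bright non-members) and of 2000 to 5000 (0.41 against 0.35), with little difference at 5000 or more (0.35 against 0.34).

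Most of the spread lay between the array pairs named above. The median member differed 1.08-fold between KBr and control and 1.09-fold between NaI and KI, but 1.17-fold to 1.19-fold across these pairs. Of the 321 members 3 differed at least 1.5-fold between KBr and control and 1 between NaI and KI, whereas 28 to 37 did so across the pairs. Within the pairs these were 0.935% and 0.312% of members, beside 0.226% and 0.527% of the bright non-members. Across the pairs they were 8.72% to 11.5% of members. There 186 to 223 of the 2656 bright non-members differed as much, at most 8.40%, so members lay somewhat above the general share. The bright non-members showed the same arrangement, at 1.08-fold within each pair and 1.14-fold to 1.16-fold across them. The labels name no batch for the arrays, so iodide and a factor shared by the NaI and KI arrays cannot be told apart.

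TAPX, the thylakoid ascorbate peroxidase that removes hydrogen peroxide, had the most even signal of the named members, 2754 with KBr, 2785 with NaI, 2834 with KI and 2824 in the control, a 1.03-fold spread. AT5G63180, a pectin lyase-like gene (1959 to 2067), AT2G03550 of the carboxylesterase family (1548 to 1659), AT2G36145, to which no role is given here (1955 to 2106), and AT1G72030 of an acetyltransferase family (2381 to 2599) were nearly as even. At the other end, AT5G18600, a glutaredoxin family gene, spread 2.85-fold, AT1G30250, with no role given, 2.56-fold, and AT5G55450, of the lipid transfer protein family, 2.51-fold. The widest spread of any member, 5.61-fold, belonged to 266385_at, which has no gene name, with shoot signals of 1616 with KBr, 7049 with NaI, 5759 with KI and 1256 in the control.

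Against the control, few members moved by 1.5-fold. With KBr 2 members were at least 1.5-fold higher and 1 was at least 1.5-fold lower, where 0.202% and 0.101% of the 2977 bright probe sets were called. The lower one was NdhS, an NDH subunit that binds ferredoxin, which read 2101 with KBr, 2516 with NaI, 2121 with KI and 3262 in the control. The higher ones, 251155_at and 259896_at, have no gene name and read 1.56 and 1.53 times the control.

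With NaI 15 members were higher and 20 lower by this rule, beside 3.86% and 4.06% of the bright probe sets, and with KI 15 were higher and 19 lower, beside 3.86% and 4.77%. In shares of the 321 members these counts were 4.67% and 6.23% with NaI and 4.67% and 5.92% with KI. Each was above its background share by few members, and with 1 array per treatment this is not read as a trait of members. The split between higher and lower depended on the scaling. Quantile normalization gave 19 higher and 16 lower with NaI and 18 higher and 13 lower with KI, and centring on the bright non-members gave 19 and 16 with NaI and 16 and 16 with KI. NaI and KI share the control array, and their counts are not independent. Under any of the salts, 52 members were called in either direction, 16.2%, beside 11.8% of the bright probe sets. A change of at least 2-fold was read for 5 members higher and 2 lower with NaI, beside 0.806% and 0.403%, for 4 higher and 3 lower with KI, beside 0.504% and 0.369%, and for 0 members with KBr, beside 0.0336% of the bright probe sets higher.

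The median log2 ratio over control was -0.014 with KBr, -0.13 with NaI and -0.061 with KI for members, and -0.0032 with KBr, -0.030 with NaI and -0.031 with KI for the bright non-members. The lowest of a member's 4 shoot signals lay on the NaI array for 122 members, 38.0%, against 26.6% of the bright non-members. For the KI array the order of these shares was reversed, with 67 members, 20.9%, against 28.7% of the bright non-members. The highest lay on the control array for 101 members, 31.5%, close to the 28.5% of the bright non-members.

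**Figure D3:**
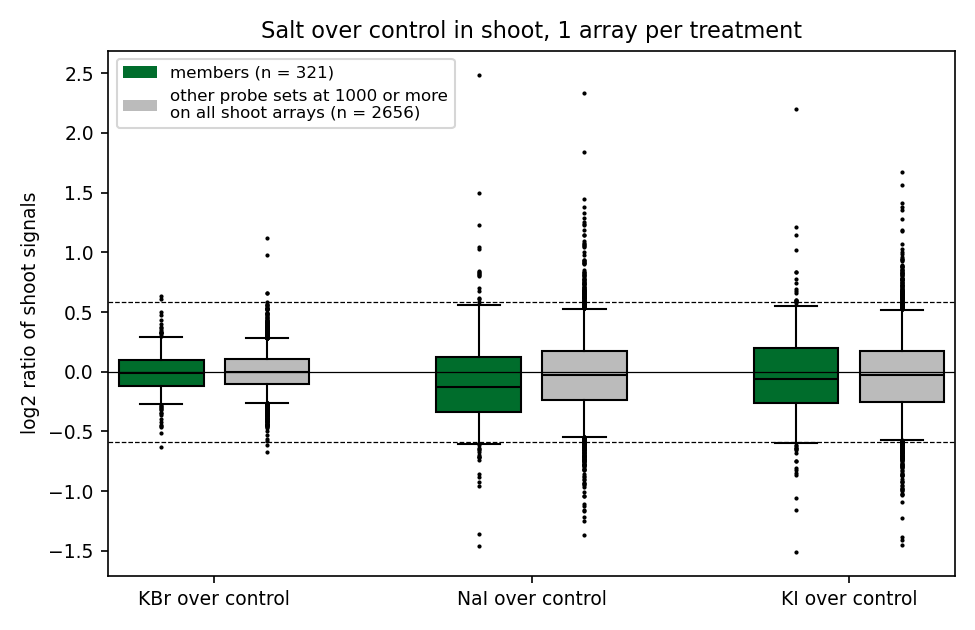
Log2 ratios of shoot signal over the control for KBr, NaI and KI, with members (green, n = 321) left of the bright non-members (grey, n = 2656). Boxes run between the quartiles with the median as a line, whiskers reach percentiles 5 and 95, points lie beyond them, and dashed lines mark 1.5-fold. The KBr boxes are the narrowest in both sets.

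Because the NaI and KI arrays read alike, a member was also asked to have both iodide signals at least 1.5-fold beyond both the KBr and the control signal, a comparison added after the data were seen. It was met by 7 members above and 8 below, beside 1.31% and 1.38% of the bright probe sets. Without a fold limit, 79 members had both iodide signals above the other pair and 135 had both below, 24.6% and 42.1% of members, beside 27.9% and 37.0%.

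Of the 7 members above, 2 name a gene. AT5G55450 of the lipid transfer protein family, small secreted proteins that carry lipids, read 2775 with KBr, 6973 with NaI, 6908 with KI and 2973 in the control. AT1G35710, a leucine-rich repeat receptor kinase of the cell surface, read 1529 with KBr, 3366 with NaI, 2736 with KI and 1633 in the control. That both iodide signals of these genes lay above the KBr and control signals was fixed by the selection.

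Of the 8 members below, 6 name a gene. AT5G18600, a glutaredoxin family gene, which encodes a small redox protein, read 2732 with KBr, 1078 with NaI, 1039.8 with KI and 2959 in the control. LHCB4.3, a minor antenna protein of photosystem II, read 4718 with KBr, 3067 with NaI, 2790.5 with KI and 5824 in the control, and AT5G08050, a grana stacking protein of the RIQ pair, read 5707 with KBr, 3090.2 with NaI, 3132 with KI and 5704 in the control. In these genes the NaI and KI signals lay close together, and their place under both others was fixed by the selection. The remaining 3 have no role assigned here. AT1G21500 read 4184 with KBr, 2141 with NaI, 2219 with KI and 3877 in the control, AT1G30250 read 3564 with KBr, 1764 with NaI, 2019.7 with KI and 4521 in the control, and AT3G45050 read 1783 with KBr, 1169.8 with NaI, 1152 with KI and 1845 in the control.

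**Figure D4:**
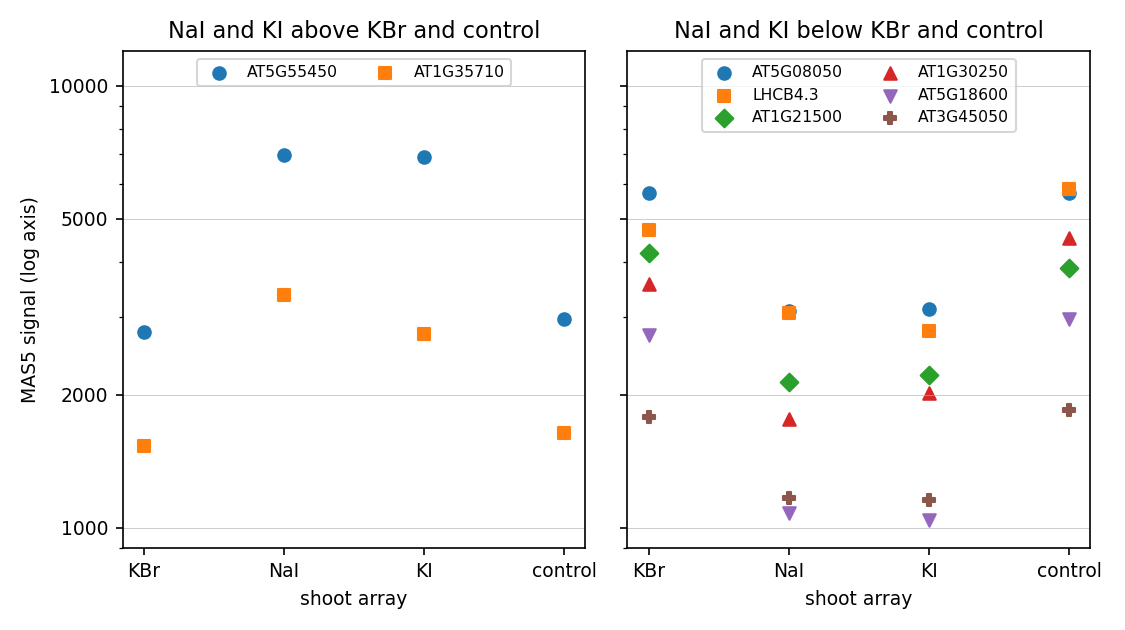
Shoot signals of the 8 named members whose NaI and KI signals were both at least 1.5-fold beyond the KBr and control signals, 1 point per array, with MAS5 signal on a log y axis and the arrays on the x axis. The left panel has the 2 genes above and the right panel the 6 genes below, and in each gene the NaI and KI points sit near each other.

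By function, 107 of the 143 named genes were placed in 8 groups from general knowledge after their names and signals had been seen, and 36 were given no role. The groups describe the members and support no test. Photosystem and light-harvesting genes made up 15 members. Their median shoot mean was 6549 and their median spread 1.39-fold, and both iodide signals lay below both others in 11 of 15, where 37.0% of all bright probe sets did the same. PSAN, a lumenal subunit of photosystem I, read 16887 with KBr, 11666 with NaI, 12320.5 with KI and 19146 in the control in shoot, with root signals of 6.44 to 47.4. It was called lower with both iodide salts, at 0.61 and 0.64 times the control, but the KI call was lost after quantile normalization. PSAE-1 of the same photosystem was 1.17 and 1.38 times the control.

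PSB27, which assists the assembly and repair of photosystem II, read 13879.6 with KBr, 8607 with NaI, 8584 with KI and 10719 in the control, so that KBr was the high array. PSBW, a small photosystem II subunit, read 14837 with KBr, 12517 with NaI, 12883 with KI and 15763 in the control, with both iodide signals lowest. PSBY, in contrast, stayed within 1.14-fold. Subunits of 1 photosystem thus did not share 1 pattern over the salts.

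The minor antenna LHCB4.2 read 12442 with KBr, 10707 with NaI, 10176 with KI and 14116 in the control, and its root signals of 2.80 to 21.2 were low even among members. LHCB4.1, the remaining gene of this small family, is no member. Its shoot signals were 28719.5 to 35601 and its root signals 106 to 214, past the root limit. The paired light-harvesting-like proteins LIL3:1 and LIL3:2, which anchor enzymes of chlorophyll synthesis, read 3039 to 4470.0 and 3573 to 4481 in shoot. Genes of such families are close in sequence, and whether probes read a related transcript was not tested.

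AT1G74730, the partner of AT5G08050 in grana stacking, read 8099.9 with KBr, 5403 with NaI, 5291 with KI and 7945 in the control, so both genes of the RIQ pair were lower on the iodide arrays than on the others. AT3G47070, a thylakoid phosphoprotein, read 7873 to 8891, and AT5G02160, which interacts with the FtsH5 protease of photosystem II repair, 3884 to 4634. The PsbP domain proteins AT1G76450 and AT1G77090, relatives of an oxygen-evolving complex subunit, read 1827 to 2959 and 1509.5 to 1894. AT1G76450 was among the 5 named members with the highest KBr ratio, 1.26 times the control.

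Electron transport, the NDH complex and thylakoid structure took 16 members with a median shoot mean of 3238. This group was the most even of the 8, at a median spread of 0.26 on the log2 scale, and the median difference between its iodide signals and the others was 0.029 on that scale. PetM, named above, stayed within 1.15-fold, and PIFI, a stromal protein linked to NDH activity, read 11249 with KBr, 11844 with NaI, 12812 with KI and 11740.5 in the control. Nuclear NDH subunits included NdhL (3719.9 to 4409), NdhN (2607 to 3013), NdhS (2101 to 3262) and the NdhV gene AT2G04039 (1253 to 1500.3). Assembly factors of the complex were CRR42 (1259 to 1412) and the PAM68-like gene AT5G52780 (2129 to 2839). All of these subunits and assembly factors but NdhS, at 1.55-fold, kept within 1.5-fold.

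Of 69 chloroplast genes with a probe set of their own, 3 were members, and all 3 encode NDH subunits: ndhJ (5544 to 7061 in shoot and 42.9 to 73.8 in root), ndhK (4920.3 to 6032 and 82.2 to 95.6) and ndhH (1162 to 1559 and 54.7 to 73.9). Another 52 chloroplast genes passed the shoot limit with a root signal over 100, at a median highest root signal of 888, and 14 did not reach 1000 on all shoot arrays. Hence most chloroplast genes with a strong shoot signal were also read in root, and the closest of them to the limit was ndhE, at a highest root signal of 100.2. ndhJ and ndhK are neighbours in the chloroplast genome.

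Further members of this group act beside the electron carriers. TROL, the thylakoid anchor of ferredoxin-NADP reductase, read 3035 to 4164, CaS, the thylakoid calcium sensing protein, 4145 to 4976, and the membrane curvature protein gene AT1G52220 (CURT1C) 5920.0 to 7006. TRXF2, a thioredoxin that switches carbon cycle enzymes on in the light, read 1512 with KBr, 1199 with NaI, 1015 with KI and 1522 in the control, and its KI signal was the lowest shoot minimum among the named members. ATPC1, the gamma subunit of the chloroplast ATP synthase, missed membership by its root signal alone, with 20573 to 22491 in shoot and 42.4 to 107 in root.

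Carbon metabolism and photorespiration gave 13 members with a median shoot mean of 6162. PRK read 18607 with KBr, 16696 with NaI, 17621 with KI and 18919 in the control, a 1.13-fold spread, and SBPASE, sedoheptulose-bisphosphatase of the same cycle, 12447 with KBr, 12814 with NaI, 11900.4 with KI and 14247 in the control. HPR, the peroxisomal hydroxypyruvate reductase of photorespiration, read 14537 with KBr, 12874 with NaI, 14256 with KI and 15863 in the control, with root signals of 34.2 to 53.6. The 3 enzymes were even over the salts, with no ratio to control past 1.5-fold.

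The H protein of glycine decarboxylase (AT1G32470), which carries the intermediate of glycine breakdown, read 7945 to 10350.4, and LrgB, the plastid transporter of glycolate and glycerate, 5698 to 7449. The Rubisco assembly factors AT5G51110 and AT5G28500 read 5174 to 6830.0 and 3864 to 5848. AT5G28500 had its high signal with KBr, 1.32 times the control. AT5G58330, a NADP-dependent malate dehydrogenase that exports reducing power from the chloroplast, read 5177 to 7531. ATSPS4F, a sucrose-phosphate synthase, ran the other way from most of the group, reading 1221 with KBr, 1630.2 with NaI, 1497 with KI and 1020.3 in the control, and was called higher with NaI at 1.60 times the control.

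Pigment, vitamin and plastid lipid genes gave 8 members of 7 genes. AT1G74470, the geranylgeranyl reductase that supplies the side chain of chlorophyll and tocopherol, read 13068 with KBr, 11660.1 with NaI, 12362 with KI and 14858 in the control. PORB, the light-dependent protochlorophyllide oxidoreductase, read 12692 with KBr, 9981 with NaI, 12065 with KI and 13608 in the control, and CHLI2, a subunit of magnesium chelatase, 1821 with KBr, 1304 with NaI, 1327 with KI and 1970.4 in the control. All 3 had their lowest signals on the iodide arrays by small margins in AT1G74470 and PORB, and CHLI2 was called lower with NaI, a call lost on centring. THIC, which makes the pyrimidine part of thiamine and is known for circadian regulation, ran the other way, at 13745 with KBr, 15492 with NaI, 16899 with KI and 13489 in the control.

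The fibrillins bind lipids in plastoglobules and thylakoids. AT5G19940 of this family read 6225 with KBr, 7465 with NaI, 9525 with KI and 6042 in the control and was called higher with KI, at 1.58 times the control. AT1G51110, also of this family, is read by 2 member probe sets. 245745_at gave 2164 with KBr, 1789 with NaI, 1235 with KI and 2226 in the control, and 245744_at gave 1348 with KBr, 1286 with NaI, 1224 with KI and 1402 in the control. The spreads of these probe sets were 1.80-fold and 1.15-fold, so the call lower with KI at the more variable one is not shared by the other. AOR, an alkenal and alkenone reductase of the chloroplast, stayed at 2271 to 2812.

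Thylakoid lumen, rhodanese and immunophilin genes, 9 members with a median shoot mean of 2117, leaned furthest towards lower iodide signals. In 8 of 9 both iodide signals were below both others, beside 37.0% of all bright probe sets, and the median difference was -0.35 on the log2 scale. AT4G24930, a lumen protein, read 1777 with KBr, 1099 with NaI, 1208 with KI and 2138 in the control and was called lower with NaI and KI. AT3G10060, an FKBP-type immunophilin, read 2790.3 with KBr, 1716 with NaI, 1674 with KI and 2507 in the control, and the rhodanese family gene AT2G42220 4921 with KBr, 3869 with NaI, 3999 with KI and 5117 in the control. Only the rhodanese family gene AT4G27700 did not follow, at 3249 with KBr, 3699.5 with NaI, 3191 with KI and 3602 in the control.

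Cell surface, defence and cold genes gave 17 members with a median shoot mean of 2871, and were the group with the highest iodide signals relative to the others. The median difference was 0.25, and both iodide signals lay above both others in 10 of 17, where 27.9% of all bright probe sets did the same. Besides AT5G55450 and AT1G35710, AT1G23130 of the Bet v 1 family read 5614 with KBr, 8198 with NaI, 7306 with KI and 4565 in the control, called higher with NaI and KI. AT3G04210, a TIR domain gene of the kind found in immune receptors, read 1362 with KBr, 2150.0 with NaI, 1635 with KI and 1205 in the control, called higher with NaI. AT5G03350, a legume lectin family gene, read 5594 with KBr, 9713 with NaI, 9667 with KI and 6929 in the control, under 1.5-fold against the control with both iodide salts.

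The cold-response genes COR15A and COR15B had their highest shoot signals in the control. COR15A read 18279 with KBr, 19653 with NaI, 18474 with KI and 24959.6 in the control, so that the control was high and the 3 salts lay together, with KBr at 0.73 times the control. Its neighbour on chromosome 2, COR15B, read 13389 with KBr, 11243 with NaI, 10948 with KI and 15404 in the control. AT2G10940, a proline-rich protein of the lipid transfer family, had its highest signal in the control too, reading 9219 with KBr, 7773 with NaI, 8360.3 with KI and 12105 in the control. COR15A and AT2G10940 were among the 5 named members with the lowest KBr ratios. AT4G13840 (CER26), which acts in wax synthesis, read 1843 to 2561.

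Transport, redox and other families made up 20 members with a median shoot mean of 1993. CCL read 14388 with KBr, 20596 with NaI, 19514 with KI and 13389 in the control and was called higher with NaI, at 1.54 times the control. AT1G68600, of the ALMT family of anion channels, read 1877 with KBr, 2792 with NaI, 2117 with KI and 1578 in the control, and AT1G52870, of the Mpv17/PMP22 family of peroxisomal membrane proteins, 3113 with KBr, 4066 with NaI, 4426 with KI and 2932 in the control. AT1G14345, an oxidoreductase family gene, read 3999 with KBr, 2423 with NaI, 2611 with KI and 3869 in the control. Both iodide signals were above both others in 6 of these members and below both others in 5, beside 27.9% and 37.0% of all bright probe sets.

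Plastid gene expression and protein handling gave 10 members with lower signals, at a median shoot mean of 1433. The Lon domain gene AT1G75460 (2956 to 3742) and the plastid RNA-binding protein AT1G60000 (2664 to 3051) were the highest. AT5G55220, a trigger factor-like chaperone, was called lower with NaI, at 2044 with KBr, 1155 with NaI, 1473 with KI and 1770.2 in the control. PDF1B, the peptide deformylase that trims new plastid proteins, read 1503 with KBr, 1169 with NaI, 1017 with KI and 1411 in the control and sat close to both limits of the rule, with root signals of 57.0 to 92.1. Among the 36 genes with no role assigned, AT5G38980 had the highest signals (14469 to 16678), and AT3G47250, at 1531 with KBr, 2049 with NaI, 2445 with KI and 1613 in the control, was called higher with KI.

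**Figure D5:**
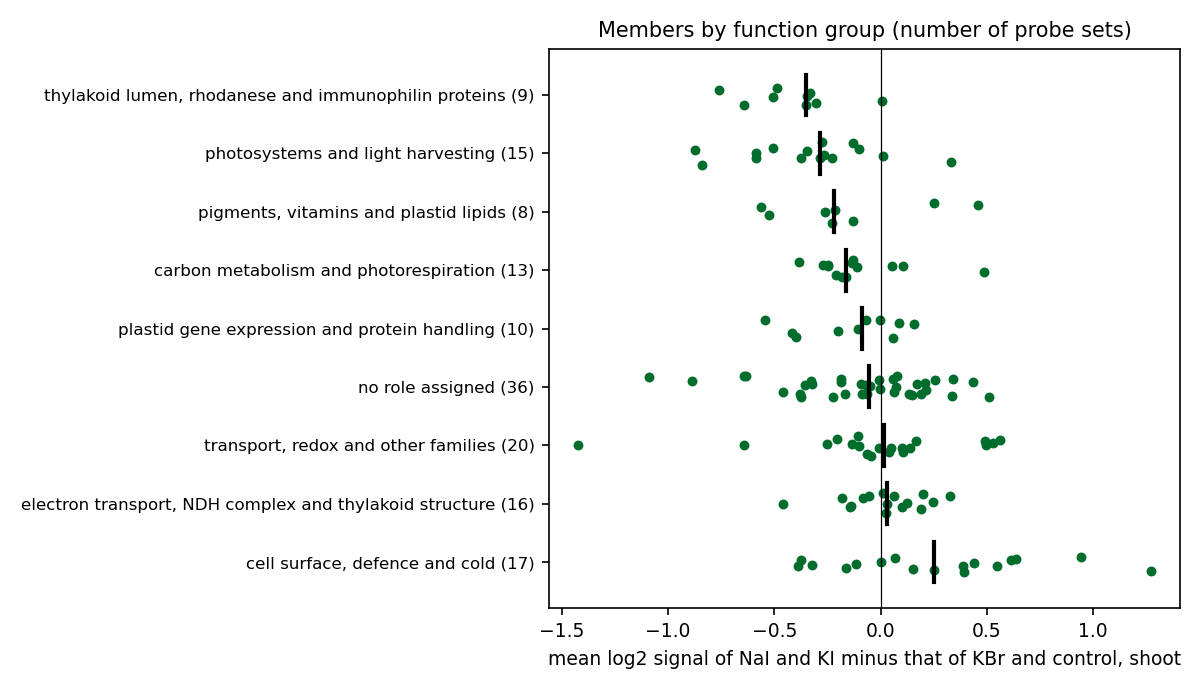
Each point is a named member in its function group, and the x axis is its mean log2 shoot signal on the NaI and KI arrays minus that on the KBr and control arrays, with a bar at the group median. The lumen and photosystem groups lie mostly left of 0, with medians of -0.35 and -0.29, and the cell surface, defence and cold group mostly right, at 0.25.

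Lists of genes by role, written from general knowledge, show which parts of the leaf's machinery the rule did and did not take. The genes matched on the lists by role were all nuclear. Of those with a probe set of their own, members were both photosystem I subunits and 3 of 4 photosystem II genes. So were 4 of 5 light-harvesting genes and all 3 carbon fixation genes. Over all probe sets naming 1 gene, 144 of 13513 were members, and 10.9% of the bright ones were. Chloroplast-encoded genes of the same systems were no members. For instance, psaA, psbA and rbcL were bright in shoot, with highest root signals of 111, 142 and 312. Of 8 chlorophyll genes 3 were members and 5 were bright with root signals of at least 239.6 at their highest. Of 3 photorespiration genes 1 was a member, and the others had root signals of over 1000 on at least 1 array. Of 7 plastid redox genes 2 were members and 5 were bright with root signals over the limit, at 227 or more at their highest. Of 6 nuclear electron transport and ATP synthase genes 3 were members, and of 3 cold and defence genes 2 were. No member came from the 2 glucosinolate genes or the 2 starch and sugar genes, all bright with root signals over the limit. The 1 carotenoid gene and the 1 cuticle gene measured alone were under the shoot limit. None of the 4 stomatal genes and neither of the 2 leaf development genes measured alone was a member, since all 6 were under the shoot limit. Of 32 nuclear loci on a list of iodinated leaf proteins taken from the study, 7 had a probe set of their own, and 4 of these were members, RCA, PSAE-1, AT1G74470 and PSB27. ATPC1 and AT5G07020 were bright with highest root signals of 107 and 110, and PYK10 was dim in shoot and reached 10000 in root. The chloroplast-encoded proteins of that list, psbA and rbcL among them, were not matched, and none of their genes was a member. Most genes on these lists have no probe set that names them alone in the tables used, so the counts cover only part of each list.

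Near the root limit, AT1G13470, with no role given, had root signals of 13.7 with KBr, 80.1 with NaI, 99.7 with KI and 2.59 in the control. AT1G52870 read 25.1 with KBr, 97.1 with NaI, 53.4 with KI and 3.72 in the control in root, and AT3G04210 read 6.94 with KBr, 64.1 with NaI, 65.1 with KI and 7.43 in the control. In these 3 genes, picked after their values were seen, both iodide signals were above the KBr and control signals in root as in shoot, at levels under 100 where MAS5 signals are imprecise. AT1G74470 was near the limit with KBr instead, at 98.4 with KBr, 45.5 with NaI, 18.2 with KI and 64.1 in the control. Just outside the root limit stood ndhE (100.2 at the highest), AT5G65840 (100.8), AT3G47650 (100.9) and AT5G42310 (101.7). By shoot minimum, the members just inside were TRXF2 (1015), AT1G14270 (1015), PDF1B (1017) and ATSPS4F (1020.3), and just outside were AT1G50450 (992), AT2G29180 (989), AT3G02690 (978) and AT4G12830 (977).

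The member genes lay on all chromosomes, with 47 on chromosome 1, 24 on chromosome 2, 20 on chromosome 3, 14 on chromosome 4, 35 on chromosome 5 and 3 in the chloroplast genome. Neighbouring pairs among them were COR15B with COR15A, AT4G28740 with PSAE-1, AT5G38510 with AT5G38520, and ndhJ with ndhK. The median length of a member gene from start to end was 1663 bp, against 2146 bp for the bright non-members and 2105 bp for all genes with a probe set of their own.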

How the data were processed

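All 8 ATH1 arrays, 1 for each treatment in each tissue, entered the work. The deposited intensity values are MAS5 signals, which the authors left on a linear scale and scaled to a trimmed mean near 500. MAS5 settings were not given in the sources used here. No further normalization was applied. Gene names came from the platform's annotation and a RefSeq gene table (TAIR10.1), used for names, neighbours and gene length only. Members and lists were chosen with earlier results of these data known, and function groups were written after the members' names and signals were seen. A change was called at a ratio of at least 1.5 between signals, with all 2977 probe sets at 1000 or more on the 4 shoot arrays as background. The genes named were the 20 with the highest mean log2 shoot signal, the 5 at each end per salt and of the spread, up to 4 per list, and 4 on each side of each threshold. Any other gene named was picked with its values in view. The functions for the rule, the salt ratios, the calls and the iodide comparison were tested on simulated data, and the spread function was not. Promoter and protein features were not analysed here. With a single array for each condition, precision is unknown, and no SD, interval or p-value was computed. The alternatives covered the thresholds, the fold, quantile normalization, centring, the baseline and arrays left out. Software was matplotlib 3.10.9, scipy 1.17.1, pandas 2.3.3 and numpy 2.4.6 in Python 3.11.15.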

Additional observations from a re-analysis of the deposited data

How the results depend on the processing

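The number of members followed the thresholds. It was 516 with a shoot limit of 500, 188 with 2000, 165 with a root limit of 50, 503 with 200 and 144 for probe sets naming 1 gene, and between 332 and 343 with the arrays of 1 treatment left out of the rule or with quantile normalization. A looser fold, a ratio of 5 to 4, was tried beside 2-fold. Counts called with KBr were 0 higher and 0 lower at 2-fold, 14 and 11 at the looser fold, and 5 and 7 against the other 3 shoot arrays. Among probe sets naming 1 gene 0 were higher with KBr, and 1 was higher among members at 2000 or more. With NaI the counts were 5 higher and 2 lower at 2-fold, 42 and 86 at the looser fold, 9 and 6 against the other 3 shoot arrays, 7 and 12 for 1 gene alone, and 3 and 12 for members at 2000 or more. With KI they were 4 and 3, 49 and 63, 5 and 5, 7 and 12, and 5 and 10 in the same order. Shares of bright probe sets called are given only for 1.5-fold and 2-fold on the deposited signals. The counts under other settings thus show how calls moved with the setting, and are not read as a trait of members. Quantile normalization and centring moved no count by over 1.5 times, and gave 19 higher and 16 lower with NaI, where the signals as deposited gave 15 and 20. The baseline of 3 arrays includes the other iodide array, so a change shared by both iodide arrays is smaller there by construction.

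The median log2 ratio with KBr was 0.043 against the other 3 arrays and -0.056 for members at 2000 or more, so its sign is not settled. With NaI it was -0.069 after quantile normalization and -0.17 for members at 2000 or more, and it was below 0 under every alternative, as was that with KI. A median below 0 is not by itself a trait of members. Against the other 3 shoot arrays the KI median was -0.012 for members and -0.028 for the bright non-members, so members were not the lower set there. The median log2 spread was 0.38 over 4 arrays, and 0.32 without KBr, 0.31 without NaI, 0.29 without KI and 0.30 without the control, fewer arrays giving a smaller range by construction. The members with both iodide signals apart numbered 3 above and 1 below at 2-fold, 22 and 32 at the looser fold, and 79 and 135 with no fold limit. Of these settings only the last has a share of bright probe sets beside it, given above. Quantile normalization gave 8 above and 6 below. Of the calls on named genes, those of PSAN and NdhS with KI and of AT2G10940 with NaI were lost after quantile normalization, that of CHLI2 with NaI was lost on centring, and 17 were lost against the other 3 shoot arrays, among them PSAN and LHCB4.3 with NaI and NdhS with KBr. None of the called values changed sign under these alternatives. No paired analysis was possible because each treatment has 1 array in each tissue and shoot against root, which chose the members, carries no test. With no replicate, a ratio near 1.5 cannot be set against the spread between plants.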
